A study of Mus musculus with 23 samples.

Results

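The 42 genes described here code for lysosomal enzymes, lysosomal membrane proteins, subunits of the lysosomal proton pump and the MiT/TFE transcription factors that act on such genes. They were chosen by name, from a list of gene symbols, with earlier results of these data known. All 42 were found among the 52636 genes of the deposited tables, and all 42 were among the 15782 genes that passed the filter on low counts and were tested. By role they are 4 MiT/TFE transcription factors, 9 cysteine proteases (the cathepsins and legumain), 3 aspartic or serine proteases, 6 membrane proteins, 7 glycosidases, 6 genes of lipid handling, progranulin, and 6 subunits of the proton pump.

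The RNA came from mouse bone marrow-derived macrophages, cells grown out of bone marrow, that were labelled Stk40 KO or WT. STK40 is a pseudokinase, a kinase-like protein known as an adaptor of the COP1 ubiquitin ligase. The groups were KO treated with LPS (lipopolysaccharide from the outer membrane of bacteria, sensed by Toll-like receptor 4) at T6, T16 and T32 and KO untreated at T0, with 3 libraries each, and WT at the same time points, with 3 libraries each except for 2 at T16. The sources used here do not give the unit of T, the knockout allele, the promoter or Cre that made it, the strain, or the age and sex of the mice. The labels do not say whether replicates are separate mice or separate cultures, so the p-values speak only of how far these samples lie apart, and that spread may be technical.

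Lysosomes are acidic compartments in which hydrolases break down proteins, glycans and lipids that arrive by endocytosis, phagocytosis and autophagy. A V-type ATPase (V-ATPase) pumps protons into them, and membrane proteins such as LAMP1 and LAMP2 line them. TFEB, TFE3, MITF and TFEC share a basic helix-loop-helix leucine zipper and bind the E-box CACGTG, and a longer form of it, the CLEAR element, stands before many lysosomal genes. When mTORC1 is active on the lysosomal surface, TFEB and TFE3 are phosphorylated and held in the cytoplasm, so their RNA is not a measure of their activity. In macrophages lysosomes also digest microbes and prepare peptides for MHC class II.

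Each library held 19455080 to 44097733 counts. Within their groups 4 libraries stood apart. Mitochondrial genes took 0.355% of the counts of KO T0 replicate 1 and 1.377% to 1.822% of those of the remaining libraries at T0, and Saa3, an acute-phase gene, took the most counts in replicate 2 of KO and of WT at T6 and in WT T16 replicate 2. Y-linked transcripts were present in 4 WT libraries, 1 at each time point, and in no KO library. At T16 this library was WT replicate 2, which also stood apart. Refits without it, without the libraries that hold Y-linked transcripts or without those that stood apart therefore leave 1 WT library at T16 and are not separate checks there. Markers of macrophages, 10 in all, summed to between 17947 and 36796 CPM (counts scaled by library size) in every library, so the markers of the labelled cell type were present throughout. Stk40 RNA was not lower in the libraries labelled KO: it averaged 56.5 ± 4.80 CPM in those labelled KO and 48.1 ± 7.29 CPM in those labelled WT at T0 (SD, n = 3 each), with no call by edgeR at any time point, and the genotypes below are therefore named as labelled.

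Promoter sequence was available for 35 of the 42 genes as windows from 250 bases before to 50 bases after the RefSeq start on build GRCm38.p6. The hexamer CACGTG, which reads the same on both strands, was present in the windows of 12 of these 35 genes (34.3%), against 8.09% of 27025 genes with a window. The 8-base core TCACGTGA, which contains that hexamer, was present in 6 of the 35 (17.1%), against 1.12% of all genes, and the full CLEAR element, that core with a G before it and a C after it, in 0 of the 35, against 0.37%. Of the 14 genes with a window that passed the test between genotypes on average, 4 held CACGTG, and of the other 21, 8 did. A match is a description of these letters and does not show that a factor binds there.

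The sites of the 4 genes that differed between genotypes on average and hold the hexamer are printed, and those of Mcoln1 as an example. Of the 12 genes with the hexamer, Mcoln1 was the only one called lower at T6 than at T0 in both genotypes. Ctsd and Gaa were called lower there in KO-labelled libraries, and a link between the hexamer and these falls was not tested. Sites are given with 12 bases on each side, 5′ to 3′ on the strand of the gene, with CACGTG in capitals.
Ctsl site: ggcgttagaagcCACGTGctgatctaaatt
Gla site, near: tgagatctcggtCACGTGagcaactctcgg
Gla site, far: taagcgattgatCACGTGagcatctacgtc
Atp6v1a site: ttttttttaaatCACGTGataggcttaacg
Ctsf site: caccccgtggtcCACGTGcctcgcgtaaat
Mcoln1 site, far: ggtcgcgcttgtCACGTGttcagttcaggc
Mcoln1 site, near: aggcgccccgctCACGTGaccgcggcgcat

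The annotations that follow are those of the hexamer in each site. The Ctsl site lies on the minus strand at chr13:64370739-64370768, and its hexamer is in an annotated untranslated exon of Ctsl. Both Gla sites lie on the minus strand, at chrX:134601182-134601211 and chrX:134601215-134601244, before the start of Gla and in an untranslated exon of its neighbour Hnrnph2, which runs the other way. The Atp6v1a site lies on the minus strand at chr16:44139373-44139402, in an intron of Atp6v1a in GENCODE. The Ctsf site lies on the plus strand at chr19:4855074-4855103, outside any annotated gene. The Mcoln1 sites lie on the plus strand of chromosome 8, at chr8:3500436-3500465, with the hexamer just before the start of Mcoln1 and outside any gene, and at chr8:3500462-3500491, with the hexamer in an untranslated exon of Mcoln1. Both Gla sites, the Atp6v1a site and the near Mcoln1 site have the core TCACGTGA, which the sites of Ctsl and Ctsf lack.

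Levels between genes were compared per length, in the authors' size-factor-adjusted RPKM (nRPKM, reads scaled by gene length and library), averaged over the 23 libraries. Psap, the precursor of the saposins that present sphingolipids to their hydrolases, was highest at 3954 nRPKM. Ctss, a protease that trims the invariant chain of MHC class II, followed at 3800.4 nRPKM, and Ctsd, the main aspartic protease of lysosomes, at 3340.2 nRPKM. The ranges of these 3 over the libraries overlapped, at 2468 to 5748, 2249.9 to 5554 and 2423 to 4983 nRPKM. The lowest were Tfeb at 10.8 nRPKM, the collagen-degrading cathepsin Ctsk at 7.37 nRPKM and the cathepsin Ctsf at 5.48 nRPKM. Among the transcription factors, Tfe3 stood highest at 62.5 nRPKM, above Tfec at 17.6, Mitf at 15.2 and Tfeb at 10.8 nRPKM, and the ranges of Tfec, Mitf and Tfeb overlapped. The range of Tfe3 over the libraries, 48.70 to 91.7 nRPKM, also overlapped that of Tfec, 4.92 to 51.6 nRPKM.

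The transcription factors differed from one another in how they moved. Tfeb fell after LPS in both genotypes, with its lowest levels at T6, and Mitf rose and stayed higher through T32. Tfec rose at T6 and was back near or under its T0 level at T16 and T32, while Tfe3 stayed within a narrow range. Between genotypes, Tfeb was lower in KO-labelled libraries at T6, and Mitf and Tfec were higher in KO-labelled libraries on average over the time points.

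Tfeb (ENSMUSG00000023990, chr17:47737030-47792419, plus strand) is the member best known for driving lysosomal genes. In KO-labelled libraries it had 78.4, 91.4 and 82.7 CPM at T0, 15.4, 13.7 and 12.6 CPM at T6, 49.5, 53.1 and 48.9 CPM at T16, and 41.8, 41.6 and 43.4 CPM at T32. In WT-labelled libraries it had 107, 83.7 and 84.0 CPM at T0, 22.9, 33.2 and 21.4 CPM at T6, 36.4 and 61.7 CPM at T16, and 36.5, 37.9 and 41.6 CPM at T32. At T6 all KO-labelled libraries lay under all WT-labelled ones, at T0 and T16 the genotypes overlapped, and at T32 the lowest KO-labelled and the highest WT-labelled library both had 41.6 CPM after rounding. Against T0, Tfeb fell at T6 by 2.60 ± 0.18 (log2, SE) in KO-labelled and by 1.83 ± 0.18 in WT-labelled libraries (edgeR quasi-likelihood test with Benjamini-Hochberg adjustment over all genes tested, adjusted p = 2.8e-10 and 2.9e-08). It was still lower than at T0 at T16, by −0.74 ± 0.17 in KO-labelled (adjusted p = 0.0019) and −0.90 ± 0.20 in WT-labelled libraries (adjusted p = 0.0014), and at T32, by −0.99 ± 0.17 (adjusted p = 0.00016) and −1.24 ± 0.17 (adjusted p = 1.2e-05). All of these calls held with each library left out in turn, and all T6, T16 and T32 comparisons within a genotype share their T0 libraries.

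The KO-minus-WT difference of Tfeb at T6 was −0.89 ± 0.18 on the log2 scale (edgeR adjusted p = 0.034). With only the T6 groups in the fit the difference was −0.90 and was not called (adjusted p = 0.56). The call was also lost in 10 of 23 refits with 1 library left out, at −0.67 without WT T6 replicate 2 (adjusted p = 0.15), −0.83 without KO T6 replicate 3 (0.22), −0.88 without KO T6 replicate 2 (0.067) and −0.97 without WT T6 replicate 1 (0.071), and at 0.05 to 0.053 without KO T0 replicate 3, KO T16 replicate 1 or 2, or any KO T32 library. Replicate 2 of both genotypes at T6 stood apart in its most abundant gene, as given above. The change of this difference from T0 to T6 was −0.77 ± 0.25 and did not pass (edgeR adjusted p = 0.5). At T0, T16 and T32 the genotype differences of Tfeb were −0.12, 0.04 and 0.13, none called. Averaged over the time points the difference was −0.21 (edgeR adjusted p = 0.096), but −0.37 (adjusted p = 0.0024) with library totals alone as the scale.

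**Figure D1:**
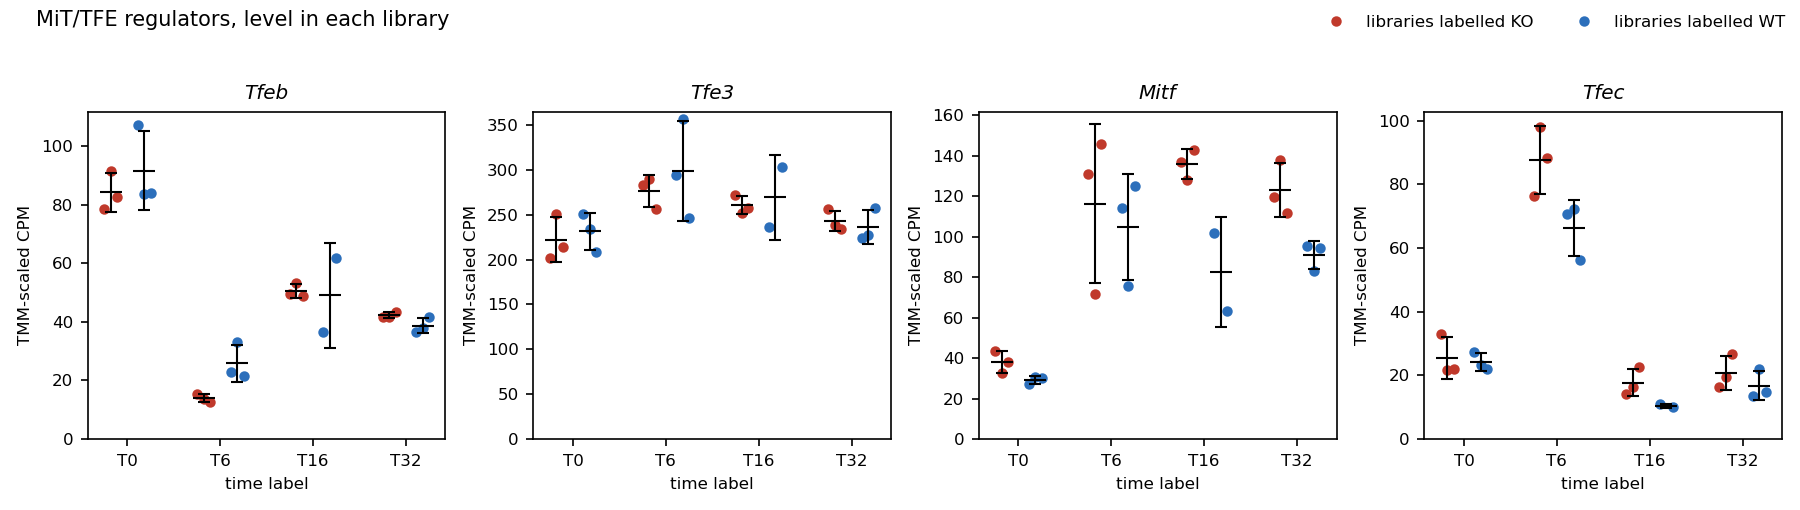
CPM of Tfeb, Tfe3, Mitf and Tfec in every library at T0, T6, T16 and T32, with KO-labelled libraries in red on the left of each pair and WT-labelled libraries in blue on the right. Bars give the mean and SD of each group. Tfeb drops to 12.6 to 15.4 CPM in KO-labelled and 21.4 to 33.2 CPM in WT-labelled libraries at T6, while Tfec peaks there.

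Mitf (ENSMUSG00000035158, chr6:97807052-98021349, plus strand), known from melanocytes and osteoclasts, had 43.4, 32.5 and 38.0 CPM in KO-labelled libraries at T0, 131, 71.7 and 146 CPM at T6, 137, 128 and 143 CPM at T16, and 119.6, 138 and 112 CPM at T32. In WT-labelled libraries it had 27.1, 30.6 and 30.4 CPM at T0, 114, 75.5 and 125 CPM at T6, 102 and 63.2 CPM at T16, and 95.6, 83.1 and 94.5 CPM at T32. The genotypes overlapped only at T6, where replicate 2 of each was lowest. Against T0, Mitf rose by 1.61 ± 0.23, 1.84 ± 0.23 and 1.70 ± 0.23 at T6, T16 and T32 in KO-labelled libraries (log2, edgeR adjusted p = 4.2e-06, 2.4e-06 and 8.5e-06). In WT-labelled libraries it rose by 1.84 ± 0.23, 1.5 ± 0.25 and 1.63 ± 0.23 (adjusted p = 8.6e-07, 8e-05 and 1.2e-05). On average over the 4 time points Mitf was higher in KO-labelled libraries by 0.42 ± 0.12 (adjusted p = 0.013). The call was lost with library totals alone as the scale (0.23, adjusted p = 0.13). It was also lost without WT T16 replicate 2 (0.34) and without the 4 WT libraries that hold Y-linked transcripts (0.37). Both refits leave a single WT library at T16.

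Tfec (ENSMUSG00000029553, chr6:16833373-16898441, minus strand), the MiT/TFE member expressed mostly in macrophages, had 33.0, 21.6 and 21.9 CPM in KO-labelled libraries at T0, 76.5, 98.1 and 88.3 CPM at T6, 14.3, 16.5 and 22.5 CPM at T16, and 16.3, 19.5 and 26.7 CPM at T32. WT-labelled libraries had 27.5, 23.2 and 22.1 CPM at T0, 70.7, 72.2 and 56.2 CPM at T6, 10.9 and 9.95 CPM at T16, and 13.6, 21.9 and 14.9 CPM at T32. The genotypes did not overlap at T6 and T16. The rise at T6 was 1.78 ± 0.22 in KO-labelled and 1.45 ± 0.22 in WT-labelled libraries (log2, edgeR adjusted p = 8.8e-07 and 1.1e-05), and from T6 to T32 Tfec fell by 2.07 ± 0.23 and 1.98 ± 0.23 (adjusted p = 2.4e-07 and 4.5e-07). Against T0, Tfec was lower at T16 in WT-labelled libraries by −1.21 (adjusted p = 0.00098). On average Tfec was higher in KO-labelled libraries by 0.39 ± 0.11 (adjusted p = 0.018). The call was lost with library totals alone as the scale (0.21, adjusted p = 0.15). It was also lost without WT T16 replicate 2 (0.37) and without the 4 WT libraries that hold Y-linked transcripts (0.36). The same held without the 4 libraries that stood apart, which are the 4 described above (0.31). Each of these refits without libraries leaves a single WT library at T16.

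Tfe3 (ENSMUSG00000000134, chrX:7762560-7775202, plus strand) ranged from 202 to 290.2 CPM over the KO-labelled and from 209 to 357 CPM over the WT-labelled libraries, with overlapping genotypes throughout. Its average KO-minus-WT difference was −0.04 ± 0.07 (edgeR adjusted p = 0.68), but −0.21 (adjusted p = 0.021) with library totals alone as the scale. Tfe3 was called higher at T6 than at T0 in WT-labelled libraries, by 0.37 (adjusted p = 0.024), but with library totals alone the same difference was −0.43 (adjusted p = 0.0066). The call was also lost without WT T6 replicate 2 (0.23, adjusted p = 0.16), without WT T0 replicate 3 (0.33, adjusted p = 0.079), without the filter on low counts (0.35, 0.096), without the WT libraries that hold Y-linked transcripts (0.39, 0.06) and with the compared groups alone (0.42, 0.052), and its direction depends on the scaling.

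Between genotypes, most of the 42 genes were at least slightly higher in KO-labelled libraries, and the cathepsin Ctsl stood out by the size of its difference. Ctsl and the cathepsin Ctsb separated the genotypes at every time point. Averaged over the time points, 17 members passed the test, 16 higher in KO-labelled libraries and 1, Ctsf, lower. The 16 were Mitf and Tfec, the cathepsins Ctsb, Ctsh, Ctsk, Ctsl and Ctss, the membrane proteins Lamp2 and Scarb2, the glycosidase Gla, the lipid-handling Npc2, Psap and Ppt1, progranulin (Grn), and the proton pump subunits Atp6v0d2 and Atp6v1a. No aspartic or serine protease passed, and 1 of 7 glycosidases did.

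The 17 members were 40.5% of the list, where 22.3% of all genes passed the same test, 12.1% higher and 10.3% lower. As the list was chosen with earlier results of these data known, these shares are not an unbiased comparison. The median log2 difference was 0.17 over the members and −0.01 over all genes. The split depends on the scaling: with library totals alone, which moved the median of all genes in this average to −0.189, 6 members were called higher (Ctsl, Ctss, Gla, Npc2, Grn and Atp6v0d2), where 5.96% of all genes were, and 9 lower, Ctsf among them, where 29.5% of all genes were. With the 4 WT libraries that hold Y-linked transcripts left out, 10 members were called, all higher, where 8.80% of all genes were called higher, and the calls of Atp6v0d2, Atp6v1a, Ctsf, Ctsk, Lamp2, Mitf, Ppt1 and Tfec were lost. Without the filter on low counts the calls of Scarb2 (0.21, adjusted p = 0.075) and Ppt1 (0.32, adjusted p = 0.066) were lost. Fewer cells of a type and less RNA per cell cannot be told apart in these libraries.

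At single time points few members passed. At T0 none did by edgeR, against 1.95% of all genes, although 6 had an unadjusted p under 0.05 and DESeq2 called 2. At T6 1 member passed, Tfeb, where 0.298% of all genes did and 0.0887% were called lower. The same-numbered KO and WT libraries of T6 deviated together (r = 0.329, 0.593 and 0.357). So did KO replicate 1 with WT replicate 3 (r = 0.3) and KO replicate 3 with WT replicate 1 (0.231). Replicate 2 of either genotype had r of −0.456 to −0.375 with the other numbers, so a pairing by number was not shown. With the replicate number as a block 2 members passed at T6, Tfeb (−0.88, adjusted p = 0.034) and Ctsl (0.80, adjusted p = 0.039). At T16 Ctsl and Atp6v1a passed, both higher in KO-labelled libraries, where 7.64% of all genes passed and 4.16% were called higher. At T32 Ctsl, Ctsk, Scarb2 and Gla passed, all higher in KO-labelled libraries, where 6.39% of all genes passed and 3.05% were called higher. Leaving out 1 library gave 0 to 3 calls at T0, with 3 without KO T0 replicate 2, 0 to 2 at T6, and 0 to 6 at T16, with 0 without WT T16 replicate 2 and 6 without KO T6 replicate 2. At T32 it gave 1 to 7 calls, with 1 without WT T32 replicate 2, 2 without KO T32 replicate 2 and 7 without KO T0 replicate 2. The 4 time points share no libraries, but the scale and the dispersion estimates are common to them. The labels do not say whether the same mice or cultures were sampled at several time points. If they were, the average over time points treats repeated samples as separate ones.

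The direction was the same for many members that did not pass. The log2 difference was above 0 for 34 of the 42 genes at T0 (81.0%, against 50.3% of all genes), for 29 at T6 (69.0% against 48.7%), for 28 at T16 (66.7% against 49.2%) and for 31 at T32 (73.8% against 48.5%). It was above 0 at all 4 time points for 21 members (50.0%, against 20.8% of all genes) and below 0 at all 4 for Ctsf and Hexa (4.76%, against 21.1%). All KO-labelled libraries lay above all WT-labelled ones for 6 members at T0 (8.79% of all genes did so), 8 at T6 (5.96%), 18 at T16 (20.4%) and 20 at T32 (17.5%). They lay below for 1, 2, 4 and 4 members (6.30%, 5.08%, 21.5% and 18.6% of all genes). At T0 the members summed to 91409 CPM in KO replicate 1, which stood apart. The other KO-labelled libraries had 66487 and 72845 CPM, and WT-labelled ones 63336 to 66042 CPM. Without that replicate, Ctsd (−0.12), Psap (−0.02) and Tfec (−0.16) fell below 0 at T0, and Tfe3 (0.01) rose above 0. With library totals alone, the all-gene median difference was −0.149 at T0 and −0.201 at T32. How many members stay above 0 there was not tested.

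**Figure D2:**
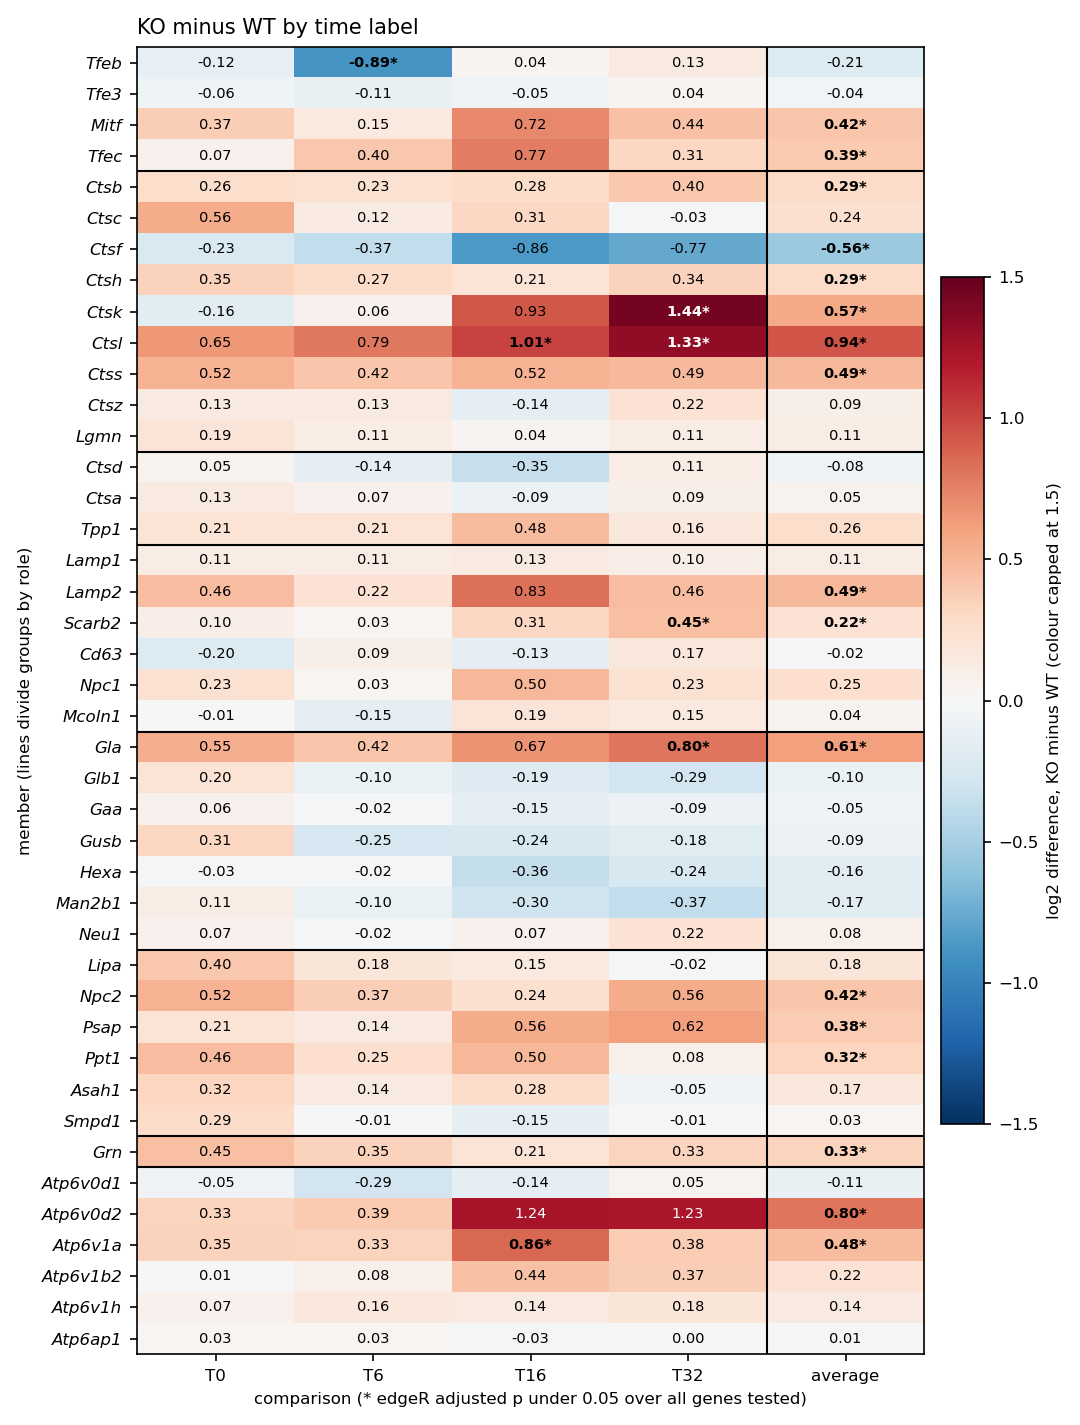
KO-minus-WT log2 difference of each of the 42 genes at T0, T6, T16, T32 and averaged, grouped by role; red is higher in KO-labelled libraries, blue lower, with the colour capped at 1.5, and a star marks an edgeR adjusted p under 0.05. Ctsl is red at all 4 time points (0.65, 0.79, 1.01 and 1.33), and the stars gather in the averaged column.

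Marker genes of several cell types differed between genotypes too. Neutrophil and precursor markers, 9 in all, summed to 610.3 to 708 CPM in KO-labelled and 325 to 615 CPM in WT-labelled libraries at T0, 582 to 709 and 307 to 528 CPM at T6, 303 to 377 and 136 to 327 CPM at T16, and 85.7 to 133 and 49.9 to 70.0 CPM at T32. On average 4 of these 9 passed the test and were higher in KO-labelled libraries. Macrophage markers summed to 21286 to 30802 CPM in KO-labelled and 17947 to 22939 CPM in WT-labelled libraries at T0, but to 25645 to 27133 and 26984 to 28469 CPM at T32. On average 3 of the 10, Mpeg1 (0.55), Fcgr1 (0.51) and Cd68 (0.49), were called higher in KO-labelled libraries, while the median over the list was −0.09. The Cd68 call was not firm, as given below. At single time points Fcgr1 at T0 (1.30) and Mpeg1 at T16 (0.83) were called higher, and Cd14 at T32 (−0.61) lower. Stromal markers, 6 in all, summed to 103 to 269.6 CPM in KO-labelled and 434 to 508 CPM in WT-labelled libraries at T16, with overlap at the other times, and 2 of them, the collagen genes Col1a1 (−1.24) and Col1a2 (−1.11), were called lower on average. Of 6 mast cell markers both that were tested, Kit (0.80) and Hdc (0.66), were called higher, with sums of 6.30 to 10 and 4.80 to 5.31 CPM at T0, 189 to 223 and 125 to 183 CPM at T6, 18.6 to 26.1 and 8.22 to 15.5 CPM at T16, and 9.21 to 12.8 and 5.29 to 9.53 CPM at T32. The other markers of this list were near the floor: 4 or 5 of the 6 averaged under 1 CPM in each group, and Mcpt4 was at 0 in every group. Whether Kit and Hdc mark mast cells here was not tested. Among 5 B cell markers Ms4a1 (1.21) and Cd79a (0.54) were called higher and Cd79b (−0.77) lower, at sums of 2.73 to 12.5 CPM in KO-labelled and 3.58 to 12.2 CPM in WT-labelled libraries. Of 7 dendritic cell markers 1, Clec9a (0.55), was called higher, at sums of 3.84 to 19 and 2.56 to 14.5 CPM. No T cell, NK cell or erythroid marker was called by edgeR on average. At single time points the NK cell marker Prf1 was called higher in KO-labelled libraries, at T16 (2.31) and T32 (1.83). All 4 NK cell markers averaged under 1 CPM in these groups. The part of these markers in the lysosomal differences was not tested.

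Ctsl (ENSMUSG00000021477, chr13:64359337-64370890, minus strand) codes for cathepsin L, a cysteine protease with broad activity in lysosomes. It had 6058, 4483 and 5105 CPM in KO-labelled against 3434, 2773 and 3787 CPM in WT-labelled libraries at T0. At T6 it had 5595, 5601 and 5798 CPM against 2942, 2886 and 3979 CPM, at T16 4646, 4611 and 4709.6 CPM against 2261 and 2358 CPM, and at T32 4265, 5005 and 4840.2 CPM against 2270.1, 1503 and 1846 CPM. Every KO-labelled library was above every WT-labelled one at each time point. The log2 differences were 0.65 ± 0.17 at T0 (edgeR adjusted p = 0.055), 0.79 ± 0.17 at T6 (adjusted p = 0.05, not under the threshold), 1.01 ± 0.19 at T16 (adjusted p = 0.0045) and 1.33 ± 0.17 at T32 (adjusted p = 9.8e-05). Other settings called it at T0 and T6: the adjusted p was 0.044 and 0.039 with the replicate number as a block and 0.0036 and 0.00017 by DESeq2.

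On average Ctsl was higher in KO-labelled libraries by 0.94 ± 0.09 (edgeR adjusted p = 8.1e-07), a call kept with each library left out and under every other setting run. The T16 call was lost with only the T16 groups in the fit (0.99, adjusted p = 0.079). It was also lost without WT T16 replicate 2, at a difference of 1.04, and without the 4 WT libraries that hold Y-linked transcripts, this library among them, at 1.04 too. Both refits leave a single WT library at T16. The difference at T32 minus that at T0 was 0.68 ± 0.24 (adjusted p = 0.28), so a growth with time was not shown. Within WT-labelled libraries Ctsl was lower at T32 than at T0, by −0.83 (adjusted p = 0.00061), and in KO-labelled libraries no LPS time point was called. Ctsl shares exon bases with an antisense gene and a pseudogene, and the kit did not mark strand, so reads of these cannot be told apart.

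Of the other cysteine proteases, Ctsb, an abundant endopeptidase and peptidyl dipeptidase, also separated the genotypes at each time point. It had 21122, 16821 and 17851 CPM in KO-labelled against 15927, 15018 and 15805 CPM in WT-labelled libraries at T0, and 19875, 20461 and 21003 CPM against 16267, 13971 and 16268 CPM at T32. The groups did not overlap at these or the other time points, and the average difference was 0.29 ± 0.08 (log2, edgeR adjusted p = 0.0094), kept with each library left out. With library totals alone it was 0.12 (adjusted p = 0.13).

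Ctss had 7241, 8463 and 8709 CPM in KO-labelled against 5951, 5519 and 5966 CPM in WT-labelled libraries at T32, and 6632, 3547 and 5463 CPM against 3579.5, 3518 and 3820.1 CPM at T0. At T32 the groups were separate, and at T0 KO replicate 2 fell among the WT-labelled libraries. The average difference was 0.49 ± 0.09 (edgeR adjusted p = 0.00073) and was kept under every setting run. Ctsh, an aminopeptidase, was higher by 0.29 ± 0.09 on average (adjusted p = 0.03), a call lost without WT T16 replicate 1 (0.23, adjusted p = 0.076), KO T0 replicate 1 (0.24, 0.058), KO T16 replicate 3 (0.27, 0.056), KO T6 replicate 3 (0.28, 0.051) or WT T6 replicate 2 (0.26, 0.05).

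Ctsk (ENSMUSG00000028111, chr3:95499256-95509362, plus strand), best known as the collagenase of osteoclasts, was a low-level gene with a late difference. At T32 it had 14.4, 18.4 and 23.9 CPM in KO-labelled against 7.87, 5.43 and 7.65 CPM in WT-labelled libraries, and at T16 13.4, 12.9 and 18.8 CPM against 6.70 and 9.16 CPM. Both times showed no overlap. At T0 it had 18.2, 10.1 and 13.7 CPM against 18.2, 13.3 and 15.6 CPM, and at T6 7.86, 17.3 and 6.32 CPM against 8.30, 11 and 10.7 CPM, with full overlap. The log2 difference was 1.44 ± 0.31 at T32 (edgeR adjusted p = 0.0074; 1.29 and adjusted p = 0.059 without WT T32 replicate 2), and 0.57 ± 0.16 on average (adjusted p = 0.014). The difference at T32 minus that at T0 was 1.60 ± 0.43 (adjusted p = 0.12), the lowest p of a member in that test but above the threshold.

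Ctsf (ENSMUSG00000083282, chr19:4855130-4860918, plus strand), another cysteine cathepsin, ran the other way. It had 2.83, 3.78 and 3.53 CPM in KO-labelled against 5.66, 6.60 and 5.09 CPM in WT-labelled libraries at T32, and 5.15, 5.83 and 6.48 CPM against 8.49 and 12.8 CPM at T16. KO-labelled and WT-labelled libraries were apart at both times and overlapped at T0 and T6. The average difference was −0.56 ± 0.15 (edgeR adjusted p = 0.0093), at −0.42 (adjusted p = 0.082) without the 4 WT libraries that hold Y-linked transcripts. The other members of this role, Ctsc, Ctsz and Lgmn, were not called between genotypes.

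Among the membrane proteins, Scarb2 (ENSMUSG00000029426, chr5:92441314-92506833, minus strand), which carries glucocerebrosidase to lysosomes, had 248, 268 and 263 CPM in KO-labelled against 212, 184 and 177 CPM in WT-labelled libraries at T32. No overlap was seen there or at T16, while the groups overlapped at T0 and T6. The difference at T32 was 0.45 ± 0.11 (log2, edgeR adjusted p = 0.017) and was lost without KO T32 replicate 2 (0.42, adjusted p = 0.077) or 3 (0.44, 0.062), without WT T32 replicate 2 (0.42, 0.091) or 3 (0.39, 0.07), with library totals alone (0.25, 0.16), and without the filter on low counts (0.45, 0.11). On average it was 0.22 ± 0.06 (adjusted p = 0.0079), but 0.05 (adjusted p = 0.55) with library totals alone.

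Lamp2, an abundant membrane glycoprotein with a role in chaperone-mediated autophagy, had 976, 891 and 979.9 CPM in KO-labelled against 597 and 469 CPM in WT-labelled libraries at T16, with no overlap. At T6 it had 1113, 562 and 1297 CPM against 1110.4, 547 and 902 CPM, and replicate 2 of each genotype lay far below the others. The average difference was 0.49 ± 0.14 (edgeR adjusted p = 0.014). Lamp1, Cd63, the cholesterol exporter Npc1 and the calcium channel Mcoln1 were not called between genotypes.

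Gla (ENSMUSG00000031266, chrX:134588149-134601125, minus strand) codes for alpha-galactosidase A, which removes galactose from glycolipids. It had 395, 444 and 425 CPM in KO-labelled against 252, 202 and 272 CPM in WT-labelled libraries at T32, and 481, 461 and 517 CPM against 273 and 336 CPM at T16. The groups were separate at T6, T16 and T32, and at T0, with 339, 185 and 269.9 CPM against 177, 160.4 and 204 CPM, they overlapped. The difference at T32 was 0.80 ± 0.18 (log2, edgeR adjusted p = 0.011; 0.76 and 0.056 without KO T32 replicate 2, 0.68 and 0.087 without WT T32 replicate 2). On average it was 0.61 ± 0.09 (adjusted p = 0.00014), kept under every setting run. Gla, Lamp2, Tfe3 and Atp6ap1 are on the X chromosome, and without the 4 WT libraries that hold Y-linked transcripts the Gla average was 0.68 (adjusted p = 0.00073) and the Lamp2 average 0.50 (adjusted p = 0.056).

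The other 6 glycosidases did not pass between genotypes. Hexa, a subunit of beta-hexosaminidase, had 472, 483 and 553 CPM in KO-labelled against 615, 615 and 551 CPM in WT-labelled libraries at T32. Glb1, the acid beta-galactosidase, had 77.8, 84.1 and 81.4 CPM against 104, 97.2 and 97.1 CPM at that time, and Man2b1, the acid alpha-mannosidase, 262, 272 and 255 CPM against 332, 337 and 351 CPM. For Glb1 and Man2b1 all KO-labelled libraries were below all WT-labelled ones at T32, and for Hexa they overlapped.

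Of the genes of lipid handling, Npc2, which hands cholesterol to NPC1, had 3069, 2589 and 2884 CPM in KO-labelled against 2073, 2055 and 1818 CPM in WT-labelled libraries at T0, and 3055, 3434 and 3629 CPM against 2213, 1954 and 2686 CPM at T32. The groups were separate at T0, T6 and T32, and at T16 WT replicate 2, at 4857 CPM, was above all KO-labelled libraries. The average difference was 0.42 ± 0.10 (log2, edgeR adjusted p = 0.0051) and was kept under every setting run.

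Psap had 15365, 17919 and 18023 CPM in KO-labelled against 12122, 9462 and 11749 CPM in WT-labelled libraries at T32, with no overlap, and the average difference was 0.38 ± 0.10 (log2, edgeR adjusted p = 0.0079). The difference at T32 alone was 0.62 ± 0.19 and missed the threshold (adjusted p = 0.054), while it passed by DESeq2 (0.64, adjusted p = 0.0075), with RLE scaling (0.64, 0.048), with the replicate block (0.64, 0.041), without the 4 libraries that stood apart (0.62, 0.0034) and with the T32 groups alone (0.63, 0.017). Ppt1, a thioesterase that takes palmitate off proteins, was at 0.32 ± 0.11 on average with an adjusted p of 0.05 after rounding, a call lost in 19 of 23 refits with 1 library left out. Lipa, Asah1 and Smpd1 were not called.

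Grn, whose product progranulin is cut into granulins in lysosomes, had 6258, 6240.1 and 6910.3 CPM in KO-labelled against 4819, 4825 and 5789 CPM in WT-labelled libraries at T32. The groups were separate at T0, T6 and T32, while WT T16 replicate 2, at 7315 CPM, was above all KO-labelled libraries of T16. The average difference was 0.33 ± 0.08 (log2, edgeR adjusted p = 0.0071) and was kept under every setting run.

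Of the proton pump, Atp6v1a (ENSMUSG00000052459, chr16:44085402-44139705, minus strand), the catalytic subunit of the cytoplasmic part, had 415, 421 and 453 CPM in KO-labelled against 308 and 166 CPM in WT-labelled libraries at T16. The 2 WT-labelled libraries differed widely from each other. The difference at T16 was 0.86 ± 0.24 (log2, edgeR adjusted p = 0.037) but 0.48 without WT T16 replicate 2 (adjusted p = 0.46). It was also lost without KO T16 replicate 1 (0.88, adjusted p = 0.086), 2 (0.87, 0.066) or 3 (0.82, 0.099), with library totals alone (0.65, 0.12) and with the T16 groups alone (0.84, 0.14). On average the difference was 0.48 ± 0.11 (adjusted p = 0.0039), kept with each library left out but not without the 4 WT libraries that hold Y-linked transcripts (0.34, adjusted p = 0.063).

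Atp6v0d2 (ENSMUSG00000028238, chr4:19876841-19922605, minus strand), a membrane-part subunit best known from osteoclasts, had 22.5, 31.8 and 41.2 CPM in KO-labelled against 18.1, 12.8 and 9.76 CPM in WT-labelled libraries at T32, and 34.7, 25.6 and 62.9 CPM against 21.8 and 13 CPM at T16. The groups were separate at both times and overlapped at T0 and T6. The average difference was 0.80 ± 0.19 (edgeR adjusted p = 0.0054), and 0.56 (adjusted p = 0.11) without the 4 libraries that stood apart. The widely expressed subunits Atp6v0d1, Atp6v1b2 and Atp6v1h and the accessory subunit Atp6ap1 were not called.

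Ctsk and Atp6v0d2 are also osteoclast genes, so 8 other osteoclast markers were read beside them. They summed to 116 to 138 CPM in KO-labelled and 117 to 126 CPM in WT-labelled libraries at T32, and to 166 to 190.4 and 174 to 178 CPM at T16. At T6 the sums were 234 to 252 and 195 to 231 CPM, without overlap. At T0 they were 96.1 to 124 and 85.7 to 98.2 CPM, with overlap. In every group 4 of the 8 averaged under 1 CPM, and Calcr, the calcitonin receptor, was at 0 in all T0 libraries. None of the 6 markers that passed the filter was called between genotypes on average.

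**Figure D3:**
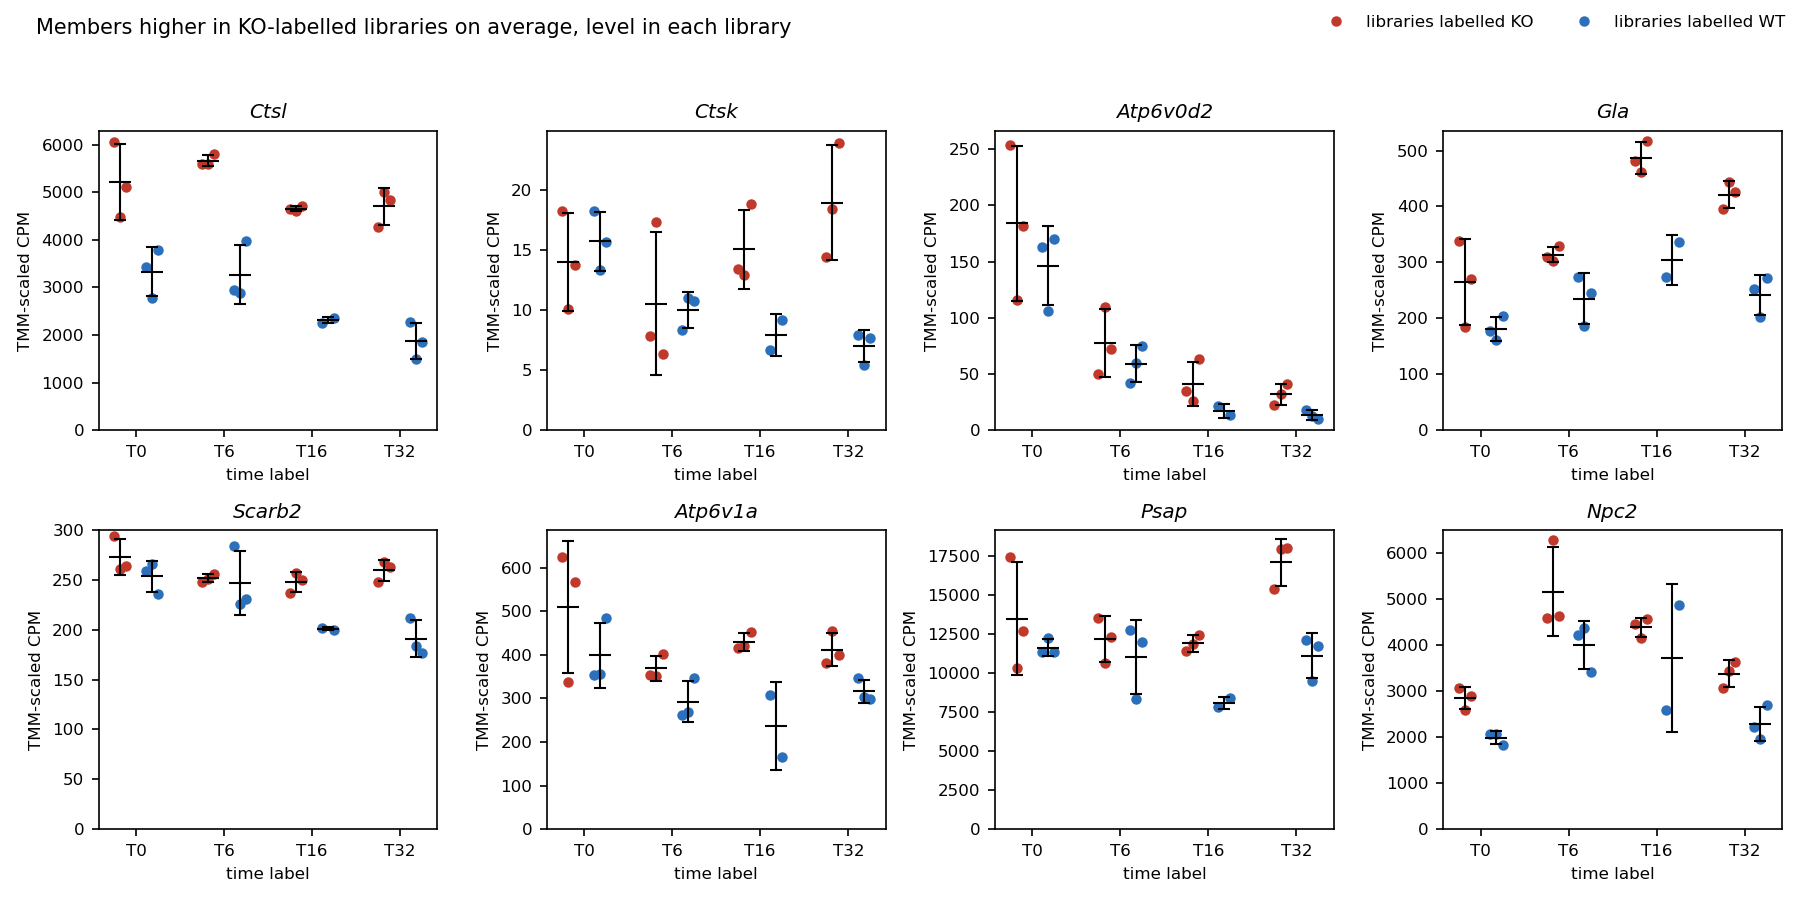
CPM in every library for Ctsl, Ctsk, Atp6v0d2, Gla, Scarb2, Atp6v1a, Psap and Npc2, with KO-labelled libraries in red on the left and WT-labelled libraries in blue on the right of each time point; bars are mean and SD. For Ctsl the red and blue points are apart at every time point, and for Ctsk and Atp6v0d2 they come apart at T16 and T32 only.

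Wide and narrow genotype differences were found at high and at low levels. Ctsl at 570.3 nRPKM had the widest average difference, and Atp6v0d2 at 25.7 nRPKM and Gla at 85.7 nRPKM came next, while Psap, the most abundant, was at 0.38. The SE was 0.19 for Atp6v0d2 and 0.09 for Ctsl and Gla. Counts of all 42 genes together made up 8.53% ± 0.359 of all counts in KO-labelled and 7.40% ± 0.516 in WT-labelled libraries at T32 (SD, n = 3 each), with ranges of 8.18% to 8.89% and 6.92% to 7.94% that did not overlap. At T0 the shares were 9.58% ± 1.09 and 8.95% ± 0.203, at T6 5.97% ± 0.227 and 5.86% ± 0.598, and at T16 7.04% ± 0.192 and 6.52% ± 0.258 (n = 3 KO and 2 WT at T16). At T0 and T6 the ranges overlapped.

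**Figure D4:**
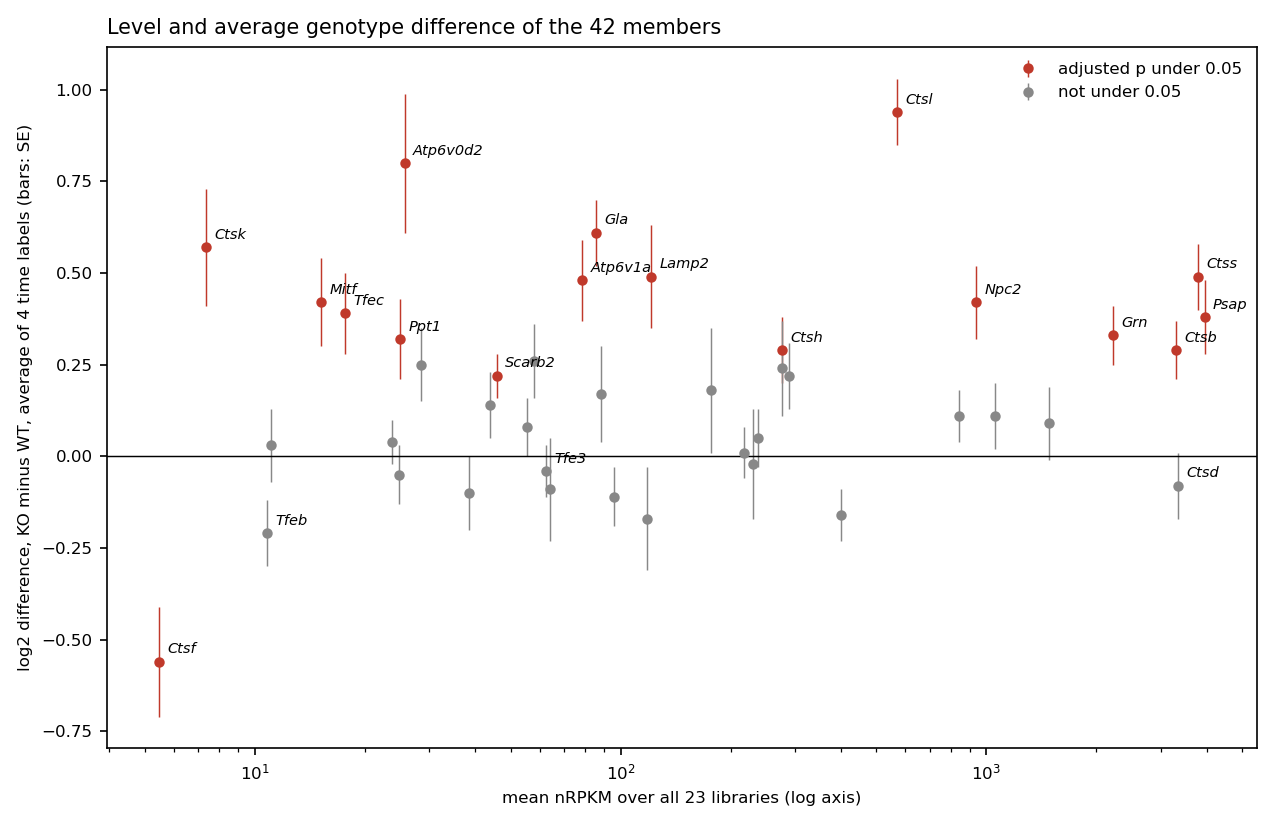
Mean level of each of the 42 genes in nRPKM (log axis) against its KO-minus-WT log2 difference averaged over the time points, with SE. Points called by edgeR are spread over the whole range of levels, from Ctsf at 5.48 to Psap at 3954 nRPKM, and Ctsl is the highest point at 0.94.

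After LPS the list did not move as a unit: Ctsc, Ctsz, Lamp2 and Mitf rose at every time point in both genotypes, and Tfeb, Atp6v0d2 and Hexa fell at every time point in both. The call of Lamp2 at T16 in WT-labelled libraries (0.76, edgeR adjusted p = 0.047) was lost in 16 of 23 refits with 1 library left out. Those of Hexa at T6, −0.39 in both genotypes (adjusted p = 0.028 in KO-labelled and 0.026 in WT-labelled libraries), were lost in 4 and 3 such refits and with RLE scaling (−0.28, 0.12, and −0.31, 0.08). With library totals alone the T6 changes of Ctsz were 0.01 (adjusted p = 0.98) and 0.03 (0.88). At T6, 9 members rose (21.4%, against 26.2% of all genes) and 9 fell (21.4% against 32.4%) in KO-labelled libraries, and 10 rose (23.8% against 27.3%) and 6 fell (14.3% against 31.9%) in WT-labelled ones. At T16, 9 rose (21.4% against 20.4%) and 9 fell (21.4% against 23.3%) in KO-labelled libraries, and 11 rose (26.2% against 18.8%) and 10 fell (23.8% against 17.2%) in WT-labelled ones. Without WT T16 replicate 2 the WT calls at T16 numbered 10 in all. At T32, 9 rose (21.4% against 18.2%) and 7 fell (16.7% against 20.0%) in KO-labelled libraries, and 10 rose (23.8% against 24.5%) and 11 fell (26.2% against 21.9%) in WT-labelled ones. Nothing particular to the list is read from these shares.

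The split between rises and falls depends on the scale. With library totals alone the median of all genes moved to −1.0 in KO-labelled and −0.944 in WT-labelled libraries at T6. On that scale 3 members rose (12.7% of all genes did) and 33 fell (60.1%) in KO-labelled libraries, and 4 rose (14.0%) and 35 fell (58.5%) in WT-labelled ones. Ctsc, Mitf and Tfec rose at T6 on both scales in both genotypes. At T16 the medians moved to −0.499 and −0.45, with 5 members up (10.8% of all genes) and 23 down (44.6%) in KO-labelled and 3 up (10.1%) and 24 down (35.7%) in WT-labelled libraries. At T32 they moved to −0.372 and −0.311, with 3 up (9.40%) and 18 down (36.6%) in KO-labelled and 5 up (14.5%) and 18 down (35.2%) in WT-labelled libraries. The changes below are on the TMM scale, relative to a median of all genes of −0.17 and −0.14 at T6 and nearer to 0 at the later times.

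The widest rise was that of Ctsc, which codes for dipeptidyl peptidase I, an activator of granule serine proteases. It had 398, 269 and 302 CPM in KO-labelled libraries at T0, 3298, 1686 and 3536 CPM at T6, 2341, 2318 and 2357 CPM at T16 and 1474, 1528 and 1362 CPM at T32. WT-labelled libraries had 238, 273 and 149 CPM at T0, 3457, 1959.7 and 2449 CPM at T6, 1862 and 1906 CPM at T16 and 1275, 1534 and 1636 CPM at T32. All LPS libraries were far above all T0 libraries, and replicate 2 was lowest at T6 in both genotypes. The log2 rises were 3.14 ± 0.27, 2.86 ± 0.27 and 2.17 ± 0.26 at T6, T16 and T32 in KO-labelled libraries (edgeR adjusted p = 5.5e-09, 7.4e-08 and 2.4e-06), and 3.58 ± 0.28, 3.10 ± 0.29 and 2.75 ± 0.27 in WT-labelled libraries (adjusted p = 1.1e-09, 7.4e-08 and 1.4e-07).

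The widest fall by T32 was that of Atp6v0d2. It had 254, 116 and 182 CPM in KO-labelled libraries at T0, and 163, 106 and 170.4 CPM in WT-labelled ones, and the T32 values given above were all under these. The log2 changes at T6, T16 and T32 were −1.25 ± 0.37, −2.16 ± 0.38 and −2.53 ± 0.39 in KO-labelled libraries (edgeR adjusted p = 0.0066, 0.00013 and 3.7e-05), and −1.31 ± 0.37, −3.07 ± 0.47 and −3.43 ± 0.40 in WT-labelled libraries (adjusted p = 0.0048, 3.3e-05 and 1.4e-06).

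At T6, Lamp2 and Npc2 were among the 5 widest rises in both genotypes, with Lamp2 at 1.19 in KO-labelled and 1.44 in WT-labelled libraries (edgeR adjusted p = 0.00071 and 0.00012). Npc2 was at 0.86 and 1.01 (adjusted p = 0.00083 and 0.00017). Neither rise was as firm as that of Ctsc: with library totals alone Npc2 was at 0.03 (adjusted p = 0.89) and 0.21 (0.25), and Lamp2 at 0.35 (0.21) in KO-labelled libraries. Falls at T6 included Npc1, at −1.03 in KO-labelled and −0.82 in WT-labelled libraries (adjusted p = 0.00019 and 0.0015), and Neu1, a sialidase, at −0.73 and −0.64 (adjusted p = 0.00039 and 0.0013). Gusb, beta-glucuronidase, fell in KO-labelled libraries by 0.90 (adjusted p = 0.0081; −0.69 and 0.051 without KO T0 replicate 1, −0.85 and 0.056 with the compared groups alone).

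Mcoln1, the lysosomal calcium channel whose promoter sites are printed above, fell at T6 in both genotypes, and a link to these sites or to Tfeb was not tested. In KO-labelled libraries it had 35.8, 38.4 and 39.9 CPM at T6, against 74.7, 71.1 and 64.4 CPM at T0, and in WT-labelled libraries 41.5, 43.0 and 41.9 CPM at T6, against 78.8, 63.5 and 69.4 CPM at T0. No T6 library reached a T0 library. The change was −0.88 in KO-labelled and −0.74 ± 0.11 in WT-labelled libraries (log2, edgeR adjusted p = 8.8e-07 and 7.9e-06), and both calls held with each library left out.

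At T16 and T32 further members moved. Hexa was lower than at T0 by −1.56 and −1.46 at T16 and T32 in KO-labelled libraries (edgeR adjusted p = 8.2e-08 and 2.5e-07), and by −1.23 and −1.25 in WT-labelled libraries (adjusted p = 1.1e-05 and 1.6e-06). Ctsf was lower by −1.62 and −2.40 in KO-labelled libraries (adjusted p = 0.00015 and 3.2e-06), and by −0.99 and −1.86 in WT-labelled ones (adjusted p = 0.021 and 3.7e-05). The WT call of Ctsf at T16 was lost without WT T0 replicate 1 (−0.80, adjusted p = 0.083) or WT T16 replicate 1 (−0.72, 0.19).

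Man2b1 fell in KO-labelled libraries by 1.06 at T16 and 1.44 at T32 (adjusted p = 0.0046 and 0.00046) and in WT-labelled libraries by 0.96 at T32 (adjusted p = 0.0087). Cd63, a tetraspanin of late endosomes, fell at T32 by 0.99 in KO-labelled libraries (adjusted p = 0.013, and 0.056 without KO T32 replicate 2) and by 1.36 in WT-labelled libraries (adjusted p = 0.0013). Ctsk fell in WT-labelled libraries by 0.99 at T16 (adjusted p = 0.032) and 1.17 at T32 (0.0043). Its T16 call was lost without WT T0 replicate 1 (−0.86, adjusted p = 0.097) or 3 (−0.99, 0.062) and without the filter on low counts (−1.0, 0.054). With a single WT library left at T16, the T16 change of Ctsk was −0.78 without replicate 1 and −1.23 without replicate 2. It was −1.33 without the WT libraries that hold Y-linked transcripts, replicate 2 of T16 among them.

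Late rises included Ctsz, a carboxypeptidase, at 0.96 in KO-labelled and 1.22 in WT-labelled libraries at T16 (edgeR adjusted p = 0.00054 and 0.00015). Ppt1 was at 0.94 and 0.89 at T16 (adjusted p = 0.0023 and 0.0076), but with library totals alone at 0.49 and 0.46 (adjusted p = 0.053 and 0.12), and the WT call was lost without the libraries that hold Y-linked transcripts (0.92, 0.061). Lgmn, an asparaginyl endopeptidase, was at 0.78 and 0.87 at T32 (adjusted p = 0.0014 and 0.0005). Lamp2 was at 0.83 in both genotypes at T32 (adjusted p = 0.019 and 0.016), and in KO-labelled libraries that call was lost without KO T0 replicate 2 (0.65, 0.1) or 3 (0.82, 0.052) or KO T32 replicate 2 (0.66, 0.095). With library totals alone both Lamp2 calls were lost (0.49 and 0.51, adjusted p = 0.12 and 0.094), and the WT call also without the libraries that hold Y-linked transcripts (0.79, 0.081). The WT rise of Npc2 at T16, 0.91 (adjusted p = 0.0025), was 0.43 (0.055) with library totals alone and 0.90 (0.06) with the compared groups alone. It was 0.38 without WT T16 replicate 2 and 0.41 without the WT libraries that hold Y-linked transcripts, this one among them. Both refits leave a single WT library at T16.

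**Figure D5:**
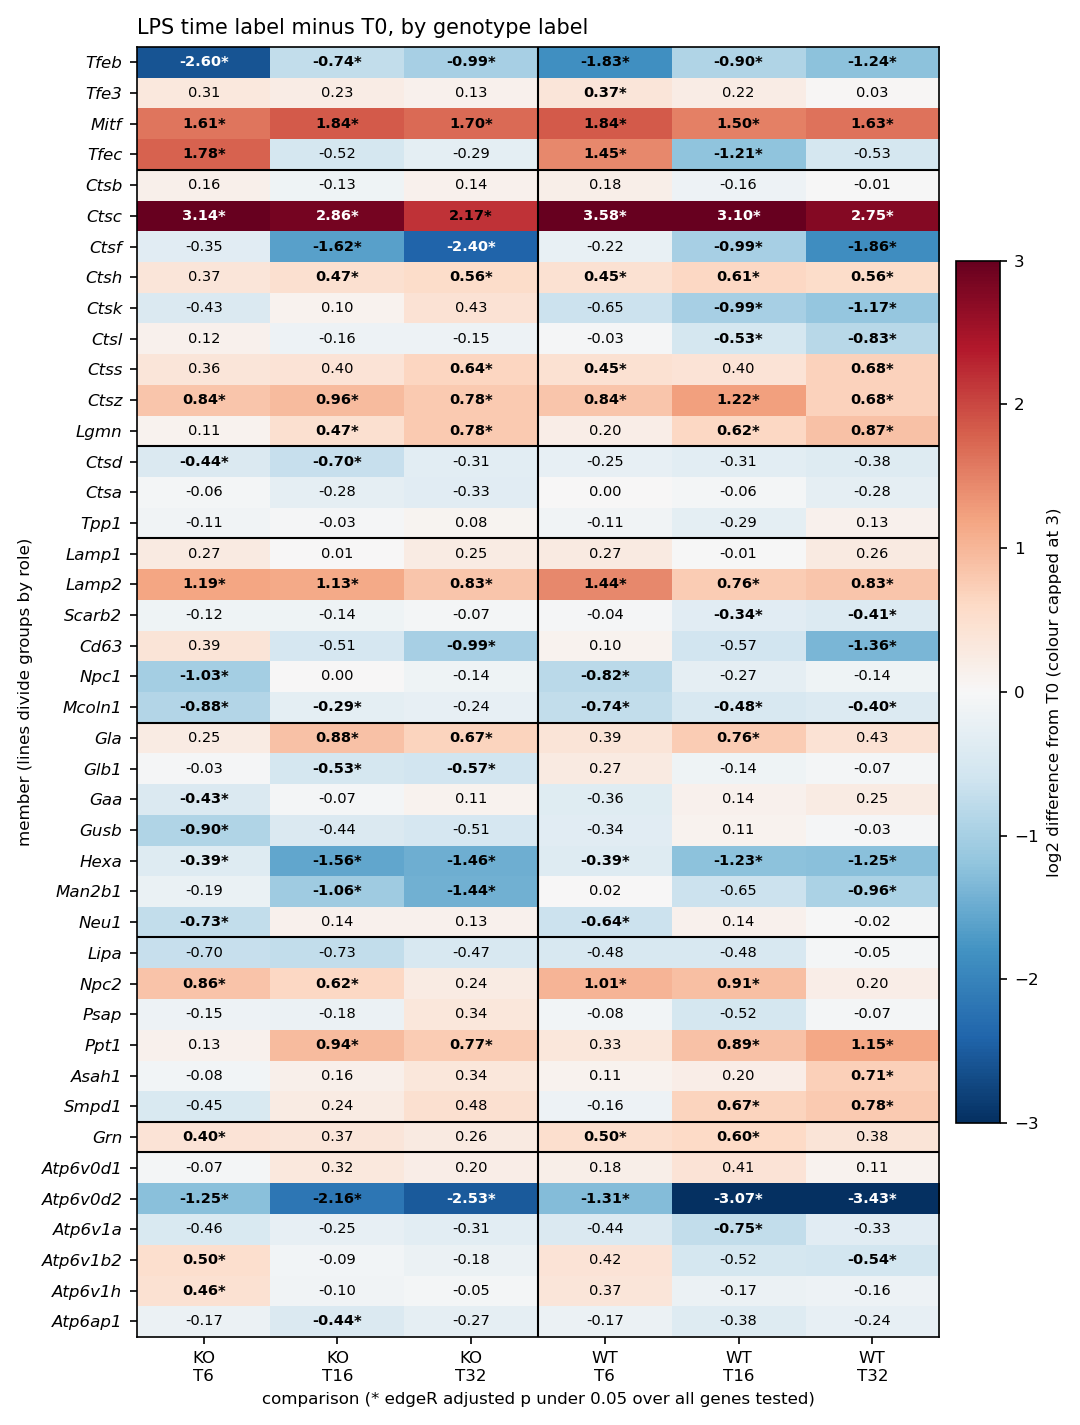
Log2 change from T0 of each of the 42 genes at T6, T16 and T32, with the 3 KO columns left of the 3 WT columns; red is higher after LPS, blue lower, with the colour capped at 3, and a star marks an edgeR adjusted p under 0.05. Ctsc, Ctsz, Lamp2 and Mitf are red and starred in all 6 columns, and Tfeb, Atp6v0d2 and Hexa blue and starred in all 6.

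From T6 to T32, 21 members changed in KO-labelled libraries, 10 up and 11 down, where 49.7% of all genes changed, and 21 changed in WT-labelled libraries, 8 up and 13 down, where 50.5% did. With library totals alone 25 were up (44.3% of all genes) and 5 down (13%) in KO-labelled libraries, and 23 up (46.5%) and 6 down (13%) in WT-labelled ones. Tfeb rose between these times by 1.61 ± 0.18 in KO-labelled and 0.58 ± 0.17 in WT-labelled libraries (edgeR adjusted p = 3.3e-07 and 0.0085). The WT call was lost without the libraries that hold Y-linked transcripts (0.46, adjusted p = 0.053).

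Whether the response to LPS differed between the genotypes was tested as the change of the KO-minus-WT difference from T0. No member passed at T6, T16 or T32 or over the 3 terms together (edgeR; 0.101%, 0.0697%, 0.387% and 0.456% of all genes passed). At an unadjusted p under 0.05 there were 1, 2, 3 and 2 members, and DESeq2 called 1 at T32 and 2 over the 3 terms. Calls in one genotype and not in the other, such as the fall of Ctsl and Scarb2 at T32 in WT-labelled libraries, are therefore not shown to differ between genotypes.

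Other genes of the pathway, taken from lists of known function, gave a mixed picture between genotypes on average. Of 33 further acid hydrolases and activators 8 were higher and 2 lower in KO-labelled libraries. The widest were the ribonuclease gene Rnaset2a at −0.54 (edgeR adjusted p = 0.0024; −0.33 and 0.055 without the 4 WT libraries that hold Y-linked transcripts), the phospholipase Pla2g15 at −0.38 (adjusted p = 0.0011) and the cathepsin Ctso at 0.37 (adjusted p = 0.011). The difference of Rnaset2a lay at T32, where it had 4.13, 3.06 and 3.87 CPM in KO-labelled against 17.9, 18.2 and 18.2 CPM in WT-labelled libraries (−2.30 ± 0.22, adjusted p = 6.9e-06). Relative to T0 the genotype difference changed by −2.36 ± 0.32 (adjusted p = 0.0017). Its paralog Rnaset2b had 1.15, 1.45 and 1.09 CPM against 2.09, 2.19 and 2.07 CPM at T32 (−0.79 ± 0.30, adjusted p = 0.14), and reads that both copies share could be split between them. Of 25 membrane proteins and transporters that were tested 7 were higher and 1 lower, with the peptide transporter Slc15a3 at 0.49 (adjusted p = 0.0078) and the nucleoside transporter Slc29a3 at 0.43 (adjusted p = 0.0068). Cd68 was at 0.49 too (adjusted p = 0.043), but its call was lost in 14 of 23 refits with 1 library left out.

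Of 13 further proton pump subunits 1 was higher and 1 lower: Atp6v1d at 0.22 (adjusted p = 0.02) and Atp6v0a1 at −0.34 (adjusted p = 0.0048). Of 11 genes of mannose 6-phosphate tagging and sorting, the route by which hydrolases reach lysosomes, 1 was higher and 2 lower. The receptor Igf2r was at 0.45 (adjusted p = 0.0022), the sorting receptor Sort1 at −0.49 (adjusted p = 0.024, and 0.079 without WT T16 replicate 1) and the adaptor subunit Ap1b1 at −0.23 (adjusted p = 0.027, lost in 6 of 23 refits with 1 library left out). Of 22 genes of the mTORC1 and Rag pathway that acts on TFEB 3 were higher and 1 lower, led by the folliculin partners Fnip2 at 0.76 (adjusted p = 0.0038) and Fnip1 at 0.61 (adjusted p = 0.03, lost in 5 of 23 refits with 1 library left out), with Ywhag, a 14-3-3 protein, at 0.29 (adjusted p = 0.01).

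Of 26 autophagy genes 3 were higher and none lower, led by Gpnmb at 0.49 (adjusted p = 0.0059), Tax1bp1 at 0.37 (adjusted p = 0.0038) and Atg3 at 0.28 (adjusted p = 0.0072). Of 4 cathepsin inhibitors that were tested Cst7 at 0.45 (adjusted p = 0.043) and Cst3 at 0.27 (adjusted p = 0.046) were called, each lost in 16 of 23 refits with 1 library left out. These shares stand beside the 12.1% and 10.3% of all genes called higher and lower in this average. With library totals alone the calls of Ctso, Slc29a3, Cd68, Igf2r, Atp6v1d, Fnip1, Ywhag, Tax1bp1, Atg3, Cst7 and Cst3 were lost. Without the WT libraries that hold Y-linked transcripts those of Ctso, Cd68, Ap1b1, Fnip1, Ywhag and Gpnmb were lost, and without the filter on low counts those of Cd68, Atp6v1d, Ap1b1, Fnip1, Cst7 and Cst3.

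After LPS, 6 of the 22 genes of the mTORC1 and Rag list rose at T6 against T0 and 10 fell in KO-labelled libraries, where 26.2% of all genes rose and 32.4% fell, and 5 rose and 8 fell in WT-labelled ones, where 27.3% rose and 31.9% fell. Like those of the members, these counts are on the TMM scale, and the shift under library totals given above applies to them too. The Rag GTPase gene Rragd was at −2.74 in KO-labelled and −2.71 in WT-labelled libraries, Rragb at −2.50 and −2.55, and folliculin, Flcn, at −2.38 and −2.17, all called by edgeR. Of the further hydrolases 6 rose and 10 fell in KO-labelled and 9 rose and 9 fell in WT-labelled libraries, with Acp5, a tartrate-resistant acid phosphatase, at 3.51 and 3.76 and Sgsh, a heparan sulfatase, at −3.36 and −3.38. Of the membrane proteins 6 rose and 14 fell in each genotype, and of the cathepsin inhibitors Cst7 rose in both, at 5.60 and 6.10.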

How the data were processed

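Polyadenylated RNA was sequenced as single-end 50 bp reads from unstranded TruSeq libraries, per the labels' protocols, and aligned with GSNAP to GRCm38, per the submitters' processing notes. The sources used here do not give versions, the counting tool or the annotation release. Raw counts of reads that align uniquely to a gene model were deposited, with RPKM adjusted by size factors (nRPKM), both so described per the file headers. Each nRPKM value was the count over the gene length times 1 factor per library. Plain RPKM was 0.718 to 1.684 times nRPKM, depending on the library. The nRPKM values were used only to compare levels between genes.

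All tests ran on the deposited counts in R 4.3.3 with edgeR 4.0.16: filterByExpr (15782 genes kept), TMM scaling (factors 0.677 to 1.45) and a robust quasi-likelihood fit of 8 group means to all 23 libraries (common dispersion as a coefficient of variation 0.217, prior degrees of freedom 4.78 in the median). Genes with p under 0.05 after Benjamini-Hochberg adjustment over the whole table were called. SE is the log2 fold change divided by the square root of F. CPM are TMM-scaled, and edgeR fold changes use its default prior count. A prior count of 1 was used only for the log2 CPM behind the correlations between KO and WT libraries. The test was tried on simulated counts first. Replicates differed by more than sampling noise in every pair (chi-square 13.04 to 175.07 per degree of freedom), and all were kept as separate libraries. The SD of CPM covers both counting error and the spread between libraries.

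The 42 members and the other lists were chosen with earlier results of these data known. Named in the text are the 4 MiT/TFE genes, each member called between genotypes, the 5 widest called LPS changes in each direction with a mean of at least 5 CPM, the 3 highest and 3 lowest by nRPKM, and the 3 widest called genes of each other list; further members are given as examples. Alternatives were DESeq2 1.42.0, RLE scaling, library totals, no filter, the compared groups alone, no WT libraries with Y-linked transcripts and each library left out. A replicate block and the removal of 4 libraries that stood apart were added after seeing the data. Gene coordinates are GENCODE vM21 on GRCm38, matched by identifier, and promoter windows are from RefSeq on GRCm38.p6. Of the 43 member windows, 41 ended in a GENCODE transcript of their gene in sense. As reads carry no strand, 12 members that share exon bases with another gene (among them Ctsl, Ctsb, Ctsd, Ctsz, Npc1, Hexa, Ppt1 and Grn) may hold some of its reads.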

Additional observations from a re-analysis of the deposited data

Results flagged for a closer look

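For 2 members every KO-labelled library was on one side of every WT-labelled library at one time point and on the other side at another. Tfeb was lower in KO-labelled libraries at T6, by −0.89 on the log2 scale, and slightly higher at T32, at 0.13. Mcoln1 was lower in KO-labelled libraries at T6, at −0.15, and higher at T16, at 0.19. The difference between these pairs of time points was not tested itself. Relative to T0, the genotype difference was not called as changed for Tfeb at T6 (−0.77, edgeR adjusted p = 0.5) or T32 (0.25, adjusted p = 0.9), nor for Mcoln1 at T6 (−0.14, adjusted p = 1) or T16 (0.20, adjusted p = 0.77).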

How the results depend on the processing

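Among the values of single named members under all settings run, 5251 kept their side of the threshold, 129 lost the call and 115 gained one. Of the 5251, 58 values of 30 differences that were called neither way changed sign, among them those of Ctsk at T6 and Tfeb at T16. Where a call was involved, 3 turned round, all of them Tfe3 under library totals: −0.43 (adjusted p = 0.0066) at T6 in WT, −0.53 (0.0014) at T6 in KO and 0.15 (0.34) from T6 to T32 in WT. Counts of called members moved by over 1.5 times as follows; the cause was not tested. For KO against WT, DESeq2 gave 2 at T0, 2 at T6, 10 at T16 and 9 at T32, RLE scaling 2 at T6, and the compared groups alone 0 at T6, 0 at T16 and 16 at T32. Leaving out the WT libraries that hold Y-linked transcripts gave 0 at T16 and 10 on average. Without the 4 libraries that stood apart there were 5 at T16 and 12 at T32. For LPS against T0, library totals gave 36 at T6 and 28 at T16 in KO and 39 at T6 in WT, the compared groups alone 11 at T6 in KO and 13 at T16 in WT, the set without Y-linked transcripts 9 at T16 in WT, and the set without the 4 libraries 27 at T32 in KO and 25 at T6 in WT. For the change of the genotype difference, DESeq2 and the set without the 4 libraries each gave 1 at T32 and 2 over the 3 terms. Leaving out 1 library gave 0 to 3, 0 to 2, 0 to 6 and 1 to 7 calls for KO against WT at T0, T6, T16 and T32, and 14 to 21 on average. It gave 16 to 21, 14 to 20 and 13 to 19 in KO and 13 to 20, 10 to 25 and 19 to 24 in WT for T6, T16 and T32 against T0. From T6 to T32 it gave 17 to 22 in KO and 18 to 23 in WT, and for the change of the genotype difference 0 at T6 and T16, 0 to 1 at T32 and 0 to 1 over the 3 terms. GEO's labels carry no replicate numbers, and those of the deposited sample sheet are not treated as pairs: same-numbered KO and WT libraries deviated together with r from −0.317 to 0.593, over 0.1 in 4 of 11 pairs, 3 of them those of T6. Pairs of different number reached r = 0.3 at T6 and 0.353 at T32. With the replicate block, KO against WT had 1, 2, 2 and 5 called members over the 4 times in order, and 19 on average. WT at T16 has 2 libraries, the fewest of any group.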
